A study of Mus musculus with 394 samples.

Results

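The ribosome-bound mRNA of dopamine neurons was compared between the 2 midbrain dissections that hold their cell bodies, the ventral tegmental area (VTA) and the substantia nigra pars compacta (SNc). The comparison rested on 6 libraries, the 3 full-length Cre+ RiboTag immunoprecipitates (IPs) of the VTA and the 3 of the SNc, chosen by their labels from the 18 full-length libraries and the 394 libraries of the whole series. All 6 came from DAT IRES-Cre/wt; RiboTag+/- mice of both sexes aged 10 to 14 months, in which Cre is driven from the dopamine transporter locus and puts an HA tag on the ribosomal protein eL22 in dopamine transporter expressing cells, and mRNA was recovered with an anti-HA antibody after lysis with cycloheximide. Input libraries, made from lysate set aside before the capture, numbered 3 per region and came from the same genotype and age. The SNr IPs (substantia nigra pars reticulata, n = 3, same genotype) entered the fit, where they shared in the filter on low counts, the scaling and the estimate of the spread. They were not compared with the other regions. Libraries of a separate 3′-end method that counts unique molecular identifiers (UMIs), with 4 Cre+ and 6 Cre- IPs per region at the same age, are used where said. Cre- mice were DAT wt/wt; RiboTag+/- and held no tagged ribosomes, so their IPs give the background of the capture. By the study's methods the SNr was removed first and the VTA and SNc were then separated by a vertical incision, so each piece holds the surrounding tissue too. All full-length libraries carry 1 batch label and the UMI libraries another, so method and batch cannot be told apart. The labels do not name mice, so the p-values measure the spread between these libraries.

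Midbrain dopamine neurons make dopamine from tyrosine by tyrosine hydroxylase and aromatic amino acid decarboxylase, load it into vesicles and take it back up through the dopamine transporter. SNc neurons project mainly to the dorsal striatum and are the cells lost first in Parkinson disease, while VTA neurons project mainly to the ventral striatum and cortex and are relatively spared. Calbindin and Otx2 mark much of the VTA and the dorsal tier, and Sox6 and Aldh1a1 mark the ventral tier of the SNc.

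The IPs held 4.74 to 11.4 M counts in the VTA and 5.81 to 10.9 M in the SNc. Levels below are CPM, read counts normalised to library size with TMM scaling over the 18 full-length libraries. The defining dopamine neuron mRNAs were concentrated in both sets of IPs. The log2 enrichment of IP over Input was 3.77 ± 0.23 (standard error, SE) in the VTA and 3.70 ± 0.23 in the SNc for Th, tyrosine hydroxylase, and 3.33 ± 0.09 and 3.82 ± 0.09 for Slc6a3, the dopamine transporter. SNc IP 1 stood apart from the other SNc IPs. Pearson's r of log2(CPM + 1), taken over genes, which are not independent replicates, was 0.970 to 0.973 among the VTA IPs and 0.941 to 0.944 among the SNc IPs, but SNc IP 1 correlated with the VTA IPs at 0.950 to 0.957, against 0.905 to 0.921 for the other SNc IPs. Glial mRNA also differed between the IPs. The 19 astrocyte markers summed to 1896 to 2432 CPM in the VTA IPs, 4012 CPM in SNc IP 1 and 5893 and 5950 CPM in the other SNc IPs, and the 18 oligodendrocyte markers to 474 to 756, 2367, 3502 and 3404 CPM. Both sets of markers were alike in the Inputs, at 9809 to 10510 CPM for astrocytes and 7672 to 9017 CPM for oligodendrocytes. A predicted gene, Gm10800, chosen after its values were seen, also set libraries apart. It was at 42.9, 26.4 and 1.83 CPM in the VTA IPs and 13.2, 1627 and 1062 CPM in the SNc IPs, so that SNc IP 2 and SNc IP 3 alone were high. The part of all these transcripts in the results that follow was not tested. Results that rest on SNc IP 1 are therefore given with and without it.

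Of 15321 genes tested with edgeR's quasi-likelihood test, 1410 (9.2%) differed between VTA and SNc IPs at an adjusted p under 0.05. VTA IPs were higher for 597 genes (3.9%) and SNc IPs for 813 (5.31%). The 2 directions differed in kind. Among the VTA-higher genes 394 (66.0%) were also enriched in VTA IP over VTA Input, whereas only 97 (11.9%) of the SNc-higher genes were enriched in SNc IP over SNc Input and 377 (46.4%) were depleted there. As background, 20.2% of 15944 genes were enriched in VTA IPs and 21% in SNc IPs (42.6% and 39.5% called in either direction), and these comparisons share their IP libraries with the regional one, so the shares are not independent of the calls. Without SNc IP 1 the counts were 1023 (5.84%) and 1045 (5.97%) of 17504 genes, 2068 (11.8%) in all, with 386 of the 394 and 90 of the 97 still called. With enrichment also taken without SNc IP 1, 705 of the 1023 VTA-higher genes were IP-enriched. Of the 1035 SNc-higher genes also tested with all libraries, 228 were then IP-enriched and 357 IP-depleted, so the contrast between the directions was smaller. Every other omission lowered the count, to 931, 817 and 670 without VTA IP 1, VTA IP 2 and VTA IP 3 and to 637 and 604 without SNc IP 2 and SNc IP 3. In that order 317, 355, 274, 246 and 204 of these were VTA-higher, each fewer than the 394. How many of the 394 and the 97 stayed called there was not counted. The median log2 fold change of VTA over SNc was −0.08 over all genes tested. Scaling on the 635 genes enriched in both IPs moved that median to −0.25, and then 303 of 1343 called genes (22.6%) were VTA-higher, against 42.3% before, so small differences below are relative to the scaling used. The 95 genes enriched more than 4-fold over Input in both regions had a median of 0.44 with the main scaling. In bulk IPs, fewer cells that express an mRNA and less of it per cell cannot be told apart. Where groups are said below not to overlap, this only describes their values. The share of all genes without overlap was not counted.

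**Figure D1:**
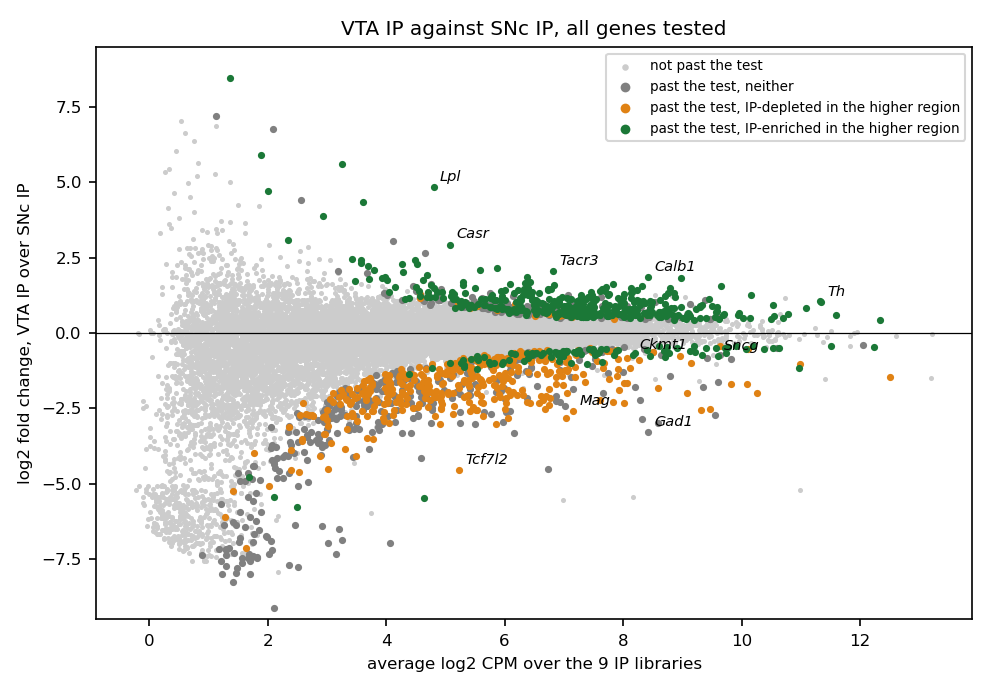
Log2 fold change of VTA IP over SNc IP (y) against average log2 CPM (x) for the 15321 genes tested, coloured by enrichment or depletion in IP over Input in the region where the gene was higher. Named points show the VTA-higher side led by IP-enriched genes such as Calb1, Casr, Tacr3 and Lpl and the SNc-higher side holding IP-depleted genes such as Mag and Tcf7l2 and genes neither enriched nor depleted, such as Gad1.

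The VTA-higher, IP-enriched mRNAs with the smallest p included a calcium buffer, a pair of receptors and a lipase. Calb1 (GRCm38, chr4:15881264-15908064), the calcium buffer calbindin, stood at 678, 613 and 682 CPM in the VTA IPs and 189.9, 204 and 169 CPM in the SNc IPs. Every VTA library lay far above every SNc library, and the SNc IP 1 value sat among its own group. The log2 difference was 1.85 ± 0.17 (adjusted p = 1.07e-06), 3.599-fold, and the Inputs did not separate in the test (log2 difference 0.25, adjusted p = 0.732). Lpl (chr8:68880491-68907448), lipoprotein lipase, had the widest difference of the 12 leading genes, with 73.6, 45.9 and 65.7 CPM in the VTA IPs and 1.57, 3.69 and 1.25 CPM in the SNc IPs. The SNc levels amounted to a few CPM and none overlapped the VTA levels (log2 difference 4.85 ± 0.53, adjusted p = 7.17e-06). The Inputs differed the same way, by 1.82 ± 0.33 (adjusted p = 0.00562). Casr (chr16:36493696-36562141), the calcium-sensing receptor, was at 88.6, 63.0 and 76.5 CPM in the VTA IPs and 8.01, 11.3 and 11.4 CPM in the SNc IPs. The groups were well apart (2.93 ± 0.29, adjusted p = 1.73e-06). Tacr3 (chr3:134829007-134934579), the neurokinin B receptor, was at 246, 207 and 245 CPM against 57.6, 43.8 and 70.1 CPM. It was 4.19-fold higher in the VTA IPs (2.07 ± 0.22, adjusted p = 3.31e-06) and by nearly as much in the Inputs (1.67 ± 0.17, adjusted p = 2.60e-05).

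The other 8 leading VTA-higher genes were Mcc, Scn9a, Sphkap, Pappa, Sdc2, Parm1, Ddah1 and Amotl1, with log2 differences of 1.38 to 2.16 and no overlap between the groups. Scn9a, a voltage-gated sodium channel better known from sensory neurons, was at 111, 113 and 111 CPM in the VTA IPs and 34.5, 25.5 and 16.9 CPM in the SNc IPs. The VTA libraries lay within a narrow range and all above the SNc ones (2.16 ± 0.26, adjusted p = 1.26e-05). Pappa, a metalloprotease that cleaves IGF-binding proteins, was at 57.4, 74.1 and 88.3 CPM against 23.7, 14.9 and 14.1 CPM. Amotl1, a junctional scaffold of the angiomotin family, was at 771, 607 and 830.1 CPM against 330.5, 142 and 174 CPM. For Amotl1 the Inputs ran slightly the other way (−0.27, adjusted p = 1.00), and SNc IP 1 was the highest of the SNc IPs. Sphkap, a PKA anchoring protein, behaved alike across the libraries, at 501, 455 and 509 CPM in the VTA IPs and 250.0, 141 and 123 CPM in the SNc IPs. Sdc2, a heparan sulphate proteoglycan, and Ddah1, which breaks down the nitric oxide synthase inhibitor dimethylarginine, differed by 1.39 ± 0.19 and 1.38 ± 0.20. Mcc and Parm1 differed by 1.86 ± 0.19 and 1.39 ± 0.19.

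**Figure D2:**
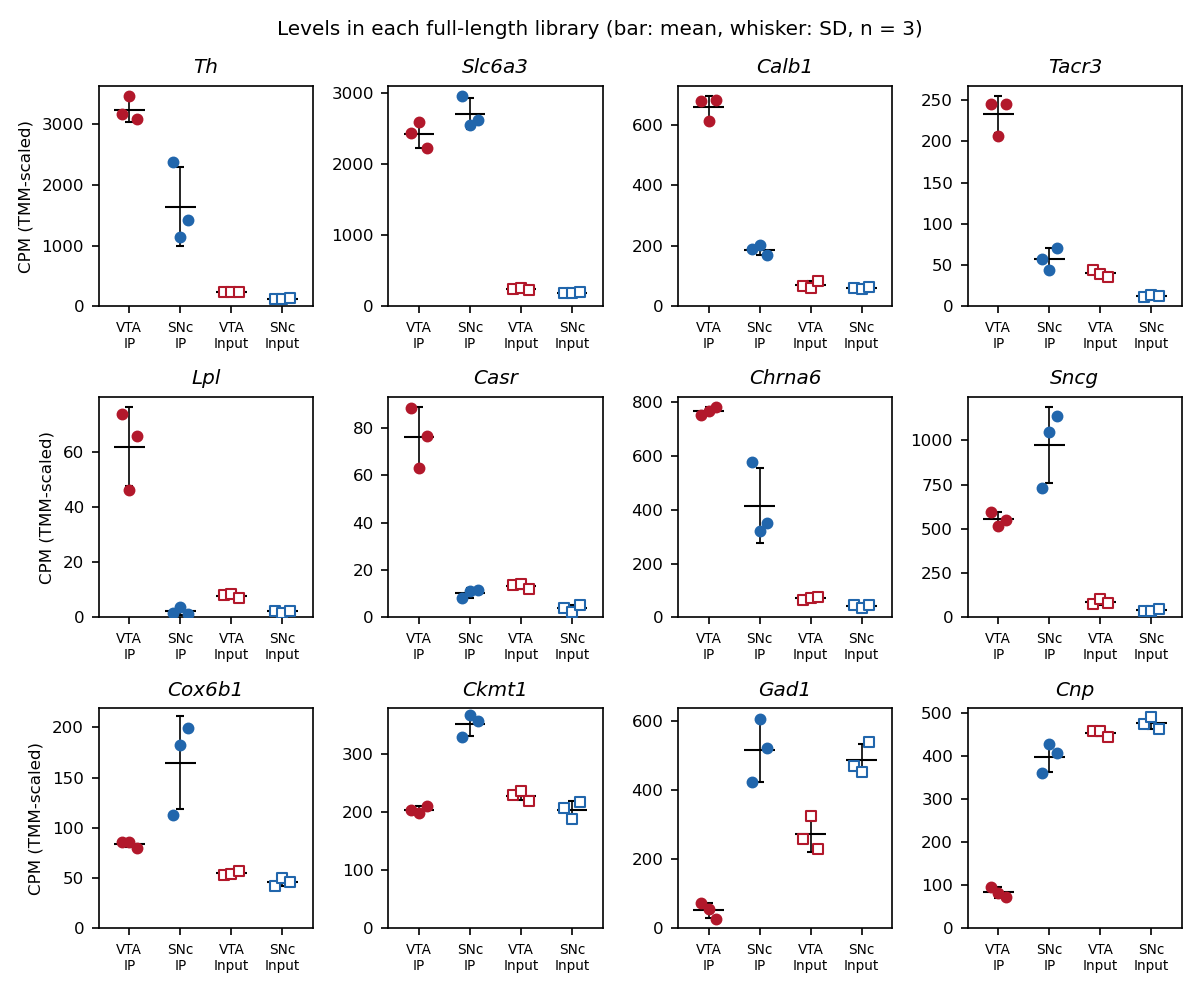
CPM of 12 genes in each VTA IP, SNc IP, VTA Input and SNc Input library, with the mean and SD of the 3 libraries per group. Calb1, Tacr3, Lpl and Casr separate the IPs of the 2 regions upward in the VTA, Sncg, Cox6b1 and Ckmt1 upward in the SNc, Slc6a3 overlaps between regions, and Gad1 and Cnp are higher in every SNc IP than in any VTA IP.

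Among the 12 SNc-higher, IP-enriched genes with the smallest p, 7 encode mitochondrial proteins. The share of such genes among all genes tested was not counted, so this number only describes the 12. Cox6c, Cox6b1 and Cox6a1 are subunits of cytochrome c oxidase, Atp5mpl belongs to the ATP synthase, Slc25a5 is an ADP/ATP carrier, Chchd10 sits in the intermembrane space and Ckmt1 is the mitochondrial creatine kinase. Ckmt1 was at 203, 197 and 210.1 CPM in the VTA IPs and 329, 365 and 356 CPM in the SNc IPs. The groups did not overlap and SNc IP 1 was close to its group (−0.74 ± 0.14, adjusted p = 0.00132), while the Input difference was 0.16 (adjusted p = 0.927). Cox6b1 was at 85.6, 85.7 and 80.2 CPM in the VTA IPs and 113, 182 and 199.7 CPM in the SNc IPs. SNc IP 1 lay between the VTA libraries and the other SNc libraries, and the log2 difference of −0.94 ± 0.19 (adjusted p = 0.00324) became −1.13 without it. Chchd10 was at 284, 302 and 279 CPM against 419.6, 520.4 and 583 CPM, again without overlap (−0.78 ± 0.16, adjusted p = 0.00261). Reads of small mitochondrial genes with processed pseudogenes can be lost where only unique alignments are counted, so their levels are uncertain in both regions alike.

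Sncg (GRCm38, chr14:34370274-34374789), gamma-synuclein, was IP-enriched more strongly than any other of these 12 mRNAs. It stood at 596, 518 and 551 CPM in the VTA IPs and 730.0, 1050.2 and 1138 CPM in the SNc IPs, with no overlap (−0.77 ± 0.16, adjusted p = 0.00379). The Inputs ran in the opposite direction, at 75.6, 101 and 78.8 CPM in the VTA and 36.01, 35.9 and 49.7 CPM in the SNc (1.08 ± 0.17, adjusted p = 0.00355). IP enrichment of Sncg was thus 2.69 in the VTA and 4.59 in the SNc on the log2 scale, and the interaction of region with fraction was −1.90 ± 0.23 (adjusted p = 9.37e-05). The remaining leading genes were Dync1h1, the heavy chain of cytoplasmic dynein, at 1566, 1188 and 831 CPM in the VTA IPs and 2446, 3063 and 2669 CPM in the SNc IPs, Eprs, a tRNA synthetase, Bsg, the chaperone of lactate transporters, and Mgst3, a microsomal glutathione transferase. None of these 4 overlapped between the groups, and their log2 differences ran from −1.16 to −0.65. Of the 12, Sncg, Chchd10 and Cox6b1 missed the threshold without SNc IP 3, Cox6a1 without VTA IP 3, Mgst3 and Slc25a5 without either of these, Bsg without VTA IP 2, VTA IP 3, SNc IP 2 or SNc IP 3, and Dync1h1 with the scaling on IP-enriched genes, each with an adjusted p of at most 0.0713.

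Of the machinery of dopamine itself, 13 of 14 listed genes were tested, 4 were VTA-higher and 1 SNc-higher, with a median log2 difference of 0.21 against −0.08 over all genes. With the scaling on IP-enriched genes 4 were VTA-higher and 3 SNc-higher, with a median of 0.05. The VTA-higher count was 5 without SNc IP 1 and 3 without SNc IP 2 or SNc IP 3. Th was at 3157, 3458 and 3076 CPM in the VTA IPs and 2366, 1137 and 1416 CPM in the SNc IPs. All VTA libraries were higher, with SNc IP 1 nearest to them (1.02 ± 0.21, adjusted p = 0.00521, or 1.40 without SNc IP 1). Gch1, the first enzyme of tetrahydrobiopterin synthesis, was at 141, 173 and 159 CPM against 111, 54.1 and 55.7 CPM (1.14 ± 0.26, adjusted p = 0.00743). Drd2, the dopamine autoreceptor, was at 323, 351 and 358 CPM against 238, 107 and 128 CPM (1.17 ± 0.22, adjusted p = 0.00240). Maoa, a monoamine-degrading oxidase, was 2.05-fold higher in the VTA. The SNc-higher member was Qdpr, which regenerates tetrahydrobiopterin, at 96.4, 99.4 and 91.3 CPM in the VTA IPs and 165, 207 and 182 CPM in the SNc IPs (−0.91 ± 0.17, adjusted p = 0.00166).

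The transporters did not follow Th. Slc6a3 was at 2434, 2591 and 2222 CPM in the VTA IPs and 2957, 2546 and 2612 CPM in the SNc IPs. The groups overlapped and the difference was −0.12 ± 0.13 (adjusted p = 0.667). Slc6a3 passed as SNc-higher in 1 of 13 alternatives, and its interaction of region with fraction was called, at −0.49. Slc18a2, the vesicular monoamine transporter, also overlapped between the regions (0.21 ± 0.15, adjusted p = 0.468). Ddc, aromatic amino acid decarboxylase, was at 1581, 1829 and 1781 CPM in the VTA IPs and 1668, 792 and 967 CPM in the SNc IPs, so that SNc IP 1 alone reached the VTA range. It missed the threshold with all libraries (0.64 ± 0.20, adjusted p = 0.0568) and passed it without SNc IP 1 (1.04, adjusted p = 2.86e-05). In all, Ddc passed in 3 of 13 alternatives.

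Transcription factors of the dopamine lineage leaned toward the VTA. All 26 listed factors were tested, 8 were VTA-higher and 4 SNc-higher, and the median was 0.57. Leaving out SNc IP 2 or VTA IP 3 left 5 VTA-higher factors, against 11 without SNc IP 1, and 5 of the 26 were VTA-higher in the Inputs. The VTA-higher ones included Nr4a2, Lmx1a, Lmx1b, En2, Foxa1, Satb1 and Bnc2. Nr4a2 (Nurr1), needed for the dopaminergic phenotype, was at 264, 340.3 and 293 CPM in the VTA IPs and 173, 67.5 and 55.5 CPM in the SNc IPs. The groups did not overlap although SNc IP 1 was well above the other SNc libraries (1.64 ± 0.35, adjusted p = 0.0138). Lmx1a was at 38.98, 43.5 and 39.8 CPM against 16.5, 8.87 and 16.3 CPM, a difference also found in the Inputs (2.14 ± 0.34, adjusted p = 0.00217). En2 was 2.79-fold higher in the VTA IPs. Pitx3 and En1, which also specify these neurons, did not pass the test (−0.32 ± 0.22 and 0.30 ± 0.16). The 4 SNc-higher factors, Nfia, Nfib, Zeb2 and Meis2, were depleted from the IPs of both regions and are known from glia and other neurons. Zeb2, for example, was at 31.6, 11.3 and 10.8 CPM in the VTA IPs, 50.3, 73.9 and 75.6 CPM in the SNc IPs and 171, 176 and 168 CPM in the VTA Inputs.

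Subtype markers separated in part. Of 22 markers of the VTA and dorsal tier, 6 were VTA-higher, 1 was SNc-higher and the median was 0.79, and 5 were VTA-higher in the Inputs. Besides Calb1, Lpl, Tacr3 and Lmx1a these were Calb2, the calcium buffer calretinin, at 771, 685 and 708 CPM against 448, 359 and 453 CPM (0.82 ± 0.16, adjusted p = 0.00224), and Neurod6, a transcription factor of a medial VTA subset. Neurod6 was at 16.5, 19.1 and 17.4 CPM in the VTA IPs and 0.523, 2.76 and 0.314 CPM in the SNc IPs (3.88 ± 0.89, adjusted p = 0.00731), with every SNc library below every VTA library. Otx2 was at 20.1, 15.0 and 16.05 CPM in the VTA IPs and 3.75, 4.49 and 5.02 CPM in the SNc IPs. The groups did not overlap, yet Otx2 missed the threshold (1.98 ± 0.67, adjusted p = 0.0671), though it passed in 4 of 13 alternatives. Cck, Grp and Vip, peptides of VTA neurons, were likewise higher in each VTA library than in any SNc library and missed the threshold (log2 differences 0.89, 2.10 and 3.05). The lack of overlap is not a test, and Otx2 and these peptides are not counted as different. The counts of VTA-higher and SNc-higher markers were 9 and 2 by DESeq2 and in a fit of the 6 IPs alone. They were 10 and 1 with no filter on low counts and 8 and 5 in a fit of all 18 libraries. Without any single library 6 or 7 were VTA-higher. The SNc-higher marker was Slc17a6, the vesicular glutamate transporter VGLUT2, at 92.6, 53.6 and 51.7 CPM in the VTA IPs and 94.8, 180.1 and 174 CPM in the SNc IPs (−1.14 ± 0.25, adjusted p = 0.00586, or 0.0572 without SNc IP 2). The log2 enrichment of Slc17a6 in the VTA IPs was −2.10 ± 0.26, a depletion, and its Input levels were 283, 288 and 283 CPM in the VTA and 222, 182 and 178 CPM in the SNc.

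The 14 ventral-tier markers did not lean toward the SNc, with 2 called in each direction and a median of 0.06, which turned to −0.09 with the scaling on IP-enriched genes and to 0.52 without SNc IP 1, when 5 were VTA-higher and 1 SNc-higher, while 1 was VTA-higher without any single VTA IP and 0 without SNc IP 2 or SNc IP 3. Aldh1a1, the retinaldehyde dehydrogenase of ventral-tier neurons, was at 4293, 3992 and 4035 CPM in the VTA IPs and 3893, 2504 and 2945 CPM in the SNc IPs. The VTA libraries were higher by a small margin over SNc IP 1 (0.44 ± 0.13, adjusted p = 0.0393). Aldh1a1 did not pass with the scaling on IP-enriched genes or without any single library other than SNc IP 1 (adjusted p up to 0.232). Sox6 was at 53.1, 54.4 and 51.1 CPM against 80.7, 34.3 and 65.4 CPM. SNc IP 1 held the highest and SNc IP 2 the lowest level of the 6 libraries, and the difference was −0.14 ± 0.24 (adjusted p = 0.816), or 0.15 without SNc IP 1. Kcnj6, the GIRK2 potassium channel, was VTA-higher (0.92 ± 0.22, adjusted p = 0.0101), and the NMDA receptor subunit Grin2c and the protease inhibitor Serpine2 were SNc-higher (−1.22 ± 0.34 and −0.60 ± 0.13). Without SNc IP 1, Grin2c no longer passed (−0.93, adjusted p = 0.111), nor without any VTA IP or SNc IP 3. Kcnj6 missed the threshold without SNc IP 2 or SNc IP 3, and Serpine2 without VTA IP 2, VTA IP 3 or SNc IP 3.

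Nicotinic acetylcholine receptor subunits leaned toward the VTA. Of 11 nicotinic subunits 8 were tested, all 8 had log2 differences above 0, 6 passed the test, and the median was 0.87 (4 passed, with a median of 0.71, under the scaling on IP-enriched genes). Leaving out VTA IP 3, SNc IP 2 or SNc IP 3 left 3, 3 and 2 called. Over all genes 3.9% were VTA-higher, and the 95 genes enriched over 4-fold in both IPs had a median of 0.44. Of the 8 subunits, 7 were IP-enriched in the VTA and 6 in the SNc. The part of this enrichment in their lean was not tested. Chrna6, the subunit most particular to midbrain dopamine neurons, was at 752, 767 and 781 CPM in the VTA IPs and 577, 320.5 and 349 CPM in the SNc IPs. No SNc library reached the VTA range (0.93 ± 0.18, adjusted p = 0.00251). Its partner Chrnb3 was at 368, 407 and 391 CPM against 255, 145 and 172 CPM (1.07 ± 0.17, adjusted p = 3.45e-04). Chrna4, Chrnb2, Chrna5 and Chrna7 differed by 0.89, 0.82, 1.04 and 0.84. Chrm5, the muscarinic receptor of dopamine neurons, was at 47.9, 60.2 and 55.3 CPM in the VTA IPs and 24.7, 18.3 and 11.6 CPM in the SNc IPs (1.61 ± 0.31, adjusted p = 0.00162). It and Drd2 were the only 2 VTA-higher members among 23 monoamine, muscarinic and purine receptors tested, of which Htr2c and Chrm2 were SNc-higher and IP-depleted. Chrm2 no longer passed without any single library other than SNc IP 1 (adjusted p up to 0.252).

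Among 35 peptide, opioid and hormone receptors tested, 4 were VTA-higher and 3 SNc-higher, with a median of −0.05 (2 VTA-higher without any single library other than SNc IP 1). Oprk1, the kappa opioid receptor, was at 97.1, 124 and 104 CPM in the VTA IPs and 43.8, 21.7 and 43.3 CPM in the SNc IPs. All VTA libraries lay above all SNc libraries (1.62 ± 0.28, adjusted p = 5.96e-04). Ntsr1, the neurotensin receptor of dopamine neurons, was at 340.3, 369 and 341 CPM against 316, 139.7 and 178 CPM (0.77 ± 0.21, adjusted p = 0.0232). Tacr3 and Adcyap1r1 were the other two. The SNc-higher receptors included Ntsr2, an astrocytic neurotensin receptor that is depleted from both IPs. Of 24 neuropeptide and granin genes tested, Scg2, secretogranin II, and Pcsk2, a prohormone convertase, were VTA-higher, and 5 were SNc-higher (0 to 3 without any single library other than SNc IP 1). Scg2 was at 3431, 3295 and 3511 CPM in the VTA IPs and 2206, 1320.4 and 1546 CPM in the SNc IPs (1.06 ± 0.16, adjusted p = 1.48e-04), while Chga, chromogranin A, ran the other way at 510.0, 446 and 458 CPM against 739.9, 757 and 910.1 CPM (−0.73 ± 0.16, adjusted p = 0.00586, or 0.0886 without SNc IP 3).

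Ion channels divided between the regions. Of 21 HCN, sodium, TRP and leak channel genes, 6 were VTA-higher, namely Scn2a, Scn3a, Scn9a, Scn2b, Scn3b and Trpc6, and 7 were SNc-higher, among them Scn1a, Scn8a, Scn4b and Hcn2. The VTA-higher count fell to 4 without VTA IP 3, SNc IP 2 or SNc IP 3. Scn8a, a sodium channel of the axon initial segment, was at 143, 124 and 103 CPM in the VTA IPs and 266, 357 and 392 CPM in the SNc IPs (−1.42 ± 0.18, adjusted p = 2.18e-05). It was depleted in both IPs, with Inputs at 365, 462 and 367 CPM and 549, 559 and 492.8 CPM. Scn4b, a beta subunit of fast-spiking neurons, was at 9.59, 18.9 and 5.28 CPM against 65.6, 87.4 and 84.5 CPM and was depleted too.

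Of 47 potassium channel genes, 8 were VTA-higher and 5 SNc-higher, with a median of 0.02 that turned to −0.15 with the scaling on IP-enriched genes. Without VTA IP 1, VTA IP 3, SNc IP 2 or SNc IP 3 the VTA-higher count was 4. Kcnn3, the SK3 channel that regulates pacemaking, was at 345, 318 and 345 CPM in the VTA IPs and 217, 96.0 and 108 CPM in the SNc IPs (1.30 ± 0.21, adjusted p = 4.59e-04). Kcnd3, an A-type channel, was at 565, 586 and 632 CPM against 374, 177 and 172 CPM (1.34 ± 0.23, adjusted p = 0.00108). For both channels SNc IP 1 lay between the remaining SNc libraries and the VTA. Kcna1 and Kcnc1, channels of fast-spiking neurons, were SNc-higher (−2.01 ± 0.28 and −1.44 ± 0.18) and IP-depleted in both regions. Among 15 voltage-gated calcium channel genes 3 were VTA-higher and 2 SNc-higher (median 0.42), and 7 and 1 without SNc IP 1. The counts were 2 and 0 without VTA IP 2, VTA IP 3 or SNc IP 2, and 2 and 1 without SNc IP 3. With the scaling on IP-enriched genes they were 2 and 2 (median 0.26). Cacna1e, the R-type channel, was at 417, 423 and 523 CPM against 324, 194 and 158 CPM (1.05 ± 0.20, adjusted p = 0.00132). Cacna1d, the L-type channel Cav1.3 linked to pacemaking of SNc neurons, missed the threshold (0.99 ± 0.32, adjusted p = 0.0568). Cacna1g, a T-type channel, was SNc-higher in the IPs (−0.56 ± 0.16, adjusted p = 0.0322) and in the Inputs (−0.71 ± 0.13, adjusted p = 0.00749). The IP call of Cacna1g was lost without any single library (adjusted p = 0.0784 without SNc IP 1, up to 0.186 for the others) and with no filter on low counts.

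Glutamate and GABA receptors showed no common direction. Of 17 ionotropic glutamate receptor genes 2 were called each way and of 7 metabotropic ones 2 were SNc-higher, including Grm3. Grik3, a kainate receptor subunit, was at 278, 281 and 323 CPM in the VTA IPs and 151, 88.7 and 73.1 CPM in the SNc IPs (1.53 ± 0.24, adjusted p = 4.73e-04), whereas its Inputs lay together (0.04, adjusted p = 1.00). Of 19 GABA and glycine receptor genes 3 were VTA-higher and 4 SNc-higher. Gabrq, the theta subunit of GABA-A receptors, was at 36.3, 38.8 and 42.5 CPM in the VTA IPs and 4.44, 9.21 and 0.627 CPM in the SNc IPs (3.05 ± 0.62, adjusted p = 0.00367). The medians of the ionotropic glutamate and GABA receptor lists, 0.14 and 0.01, turned to −0.03 and −0.16 with the scaling on IP-enriched genes.

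Of 40 genes of synaptic vesicle release, 11 were VTA-higher and 5 SNc-higher, with a median of 0.29 (9 and 7, median 0.13, with the scaling on IP-enriched genes). The VTA-higher count was 16 without SNc IP 1 and 3 to 6 without any single other library. Cadps2, which primes dense-core vesicles, was at 1181, 1202 and 1320.1 CPM in the VTA IPs and 699, 278 and 318 CPM in the SNc IPs (1.56 ± 0.38, adjusted p = 0.0382). Syt17, a calcium-independent synaptotagmin, was at 251, 266 and 285 CPM against 158, 63.1 and 77.2 CPM (1.47 ± 0.24, adjusted p = 5.71e-04). In both cases SNc IP 1 was the nearest to the VTA. The SNc-higher members included Vamp1 and Syt2, release proteins of fast synapses, which were depleted from both IPs, at 60.4, 63.4 and 53.1 CPM against 154, 173 and 169 CPM for Vamp1. Of 32 calcium-binding, pump and store genes, 6 were VTA-higher and 7 SNc-higher, with a median of 0.04 (3 and 9, median −0.13, with the scaling on IP-enriched genes). Without VTA IP 1, VTA IP 3 or SNc IP 3, 4 were VTA-higher and 5 SNc-higher. Hpcal4, a neuronal calcium sensor, was VTA-higher by 1.09 ± 0.17, and Atp2b1, a plasma membrane calcium pump, SNc-higher (−1.34 ± 0.22).

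Guidance, adhesion and trophic genes were called in both directions. Of 89 axon guidance and adhesion genes tested, 18 were VTA-higher and 7 SNc-higher (median 0.29, and 12 and 9 with the scaling on IP-enriched genes, median 0.12). The VTA-higher count was 25 without SNc IP 1 and 6 to 13 without any single other library. Ntn1, the guidance cue netrin-1, was at 396, 376 and 381 CPM in the VTA IPs and 240.3, 81.3 and 122 CPM in the SNc IPs (1.42 ± 0.29, adjusted p = 0.00838), and its receptor Dcc at 178, 164 and 191 CPM against 135, 83.3 and 86.3 CPM (0.84 ± 0.19, adjusted p = 0.00706). Epha6, an ephrin receptor, differed by 1.36 ± 0.24. Of 43 growth factor and receptor genes 7 were VTA-higher and 2 SNc-higher, with a median of −0.04 (4 VTA-higher without VTA IP 3 or SNc IP 3). Ret, the signalling receptor for GDNF, was at 2643, 2555 and 2708 CPM in the VTA IPs and 1988, 1216 and 1399 CPM in the SNc IPs (0.82 ± 0.16, adjusted p = 0.00235), and its co-receptor Gfra1 at 282, 244 and 289 CPM against 234, 108 and 145 CPM (0.79 ± 0.20, adjusted p = 0.0139). Erbb4, a neuregulin receptor, was VTA-higher by 1.05 ± 0.18. The SNc-higher members were Fgfr2 and Fgfr3, of which Fgfr3 marks astrocytes. Of 29 cholesterol and lipid synthesis genes, 8 were VTA-higher and 3 SNc-higher (median 0.45, but 3 and 4 with the scaling on IP-enriched genes, median 0.28). Without VTA IP 2, VTA IP 3, SNc IP 2 or SNc IP 3 the VTA-higher count was 3 to 5. Acaca, acetyl-CoA carboxylase, was at 229, 247 and 239.6 CPM against 153, 73.4 and 87.0 CPM (1.23 ± 0.23, adjusted p = 0.00234, or 0.0663 with the scaling on IP-enriched genes), and Hmgcs1, an early enzyme of cholesterol synthesis, was higher in the VTA both in IPs (0.78 ± 0.15) and in Inputs (0.59 ± 0.12, adjusted p = 0.0211).

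The nuclear-encoded respiratory chain was SNc-higher. Of 41 genes tested 15 were SNc-higher and 0 VTA-higher, 40 of 41 log2 differences were below 0, and the median was −0.57, against −0.08 over all genes. By DESeq2 16 were SNc-higher and 0 VTA-higher. Without SNc IP 1 the count was 21 (median −0.63), with the scaling on IP-enriched genes 26 (median −0.74). It fell to 7, 5 and 3 without VTA IP 1, VTA IP 2 and VTA IP 3 and to 4 and 2 without SNc IP 2 and SNc IP 3, with medians of −0.55, −0.55, −0.51, −0.48 and −0.44. The summed level was 6772 to 7417 CPM in the VTA IPs, 8969 CPM in SNc IP 1 and 10280 and 10410 CPM in the other SNc IPs. The Inputs showed no such lean, at 5203 to 5447 CPM in the VTA and 4814 to 4979 CPM in the SNc, with a median log2 difference of 0.13 and no gene called. Enrichment over Input was called for 39 members in the SNc and 24 in the VTA, and the interaction of region with fraction was called for 27, all lower in the VTA. Cox5b, a cytochrome c oxidase subunit, was at 132, 133 and 131 CPM in the VTA IPs and 154, 309 and 319.9 CPM in the SNc IPs. The VTA libraries were nearly equal, and SNc IP 1 was much closer to them than to its own group (−0.95 ± 0.21, adjusted p = 0.00552, and −1.19 without it). Atp5b, the catalytic subunit of ATP synthase, was at 927, 1001 and 944 CPM against 1398, 1389.9 and 1430.0 CPM. Here all 3 SNc libraries were alike (−0.52 ± 0.12, adjusted p = 0.00860).

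Cytosolic ribosomal protein genes seldom passed, with 1 of 49 SNc-higher, 42 of 49 below 0 and a median of −0.37. The count was 4 without SNc IP 1, 5 with the scaling on IP-enriched genes, 8 in a fit of all 18 libraries, 3 in a fit of the 6 IPs alone and 0 without any single other library. Rplp1, an acidic stalk protein, was at 83.0, 90.9 and 76.5 CPM in the VTA IPs and 108, 142 and 150.4 CPM in the SNc IPs (−0.64 ± 0.17, adjusted p = 0.0220, and up to 0.198 without any single library other than SNc IP 1). Mitochondrially encoded transcripts, which are not translated on the tagged ribosomes, were strongly depleted from all IPs. The 8 tested summed to 996 to 1451 CPM in the VTA IPs, 1836 CPM in SNc IP 1, 4955 and 5687 CPM in the other SNc IPs and 25890 to 31840 CPM in the Inputs, and 2 were called SNc-higher (7 without SNc IP 1 and 0 or 1 without any single other library). Of 22 Parkinson disease genes, 2 were SNc-higher, Chchd2 (−0.66 ± 0.18) and Vps13c (−0.61 ± 0.18), and none VTA-higher, with a median of 0.09 that turned to −0.09 with the scaling on IP-enriched genes. Without SNc IP 1, 4 were VTA-higher and 3 SNc-higher, with the scaling on IP-enriched genes or in a fit of all 18 libraries 5 were SNc-higher, without VTA IP 1 the count was 1, and without VTA IP 2, VTA IP 3, SNc IP 2 or SNc IP 3 none was called (adjusted p up to 0.164 for Chchd2 and 0.313 for Vps13c). Of 12 immediate early genes Arc alone passed with all libraries, at 10.8, 5.81 and 5.81 CPM in the VTA IPs and 21.3, 29.8 and 16.5 CPM in the SNc IPs (−1.55 ± 0.48, adjusted p = 0.0474). Arc did not pass without SNc IP 1 (adjusted p = 0.0605), nor without VTA IP 2, VTA IP 3, SNc IP 2 or SNc IP 3 (adjusted p up to 0.264).

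Transcript length went with the direction of the difference. The median longest transcript, from the GENCODE vM21 annotation, was 4753.5 nt for the 394 VTA-higher, IP-enriched genes, 1882 nt for the 97 SNc-higher, IP-enriched genes and 4484 nt for the 377 SNc-higher, IP-depleted genes, against 3354.5 nt over all 15306 genes with a length. From the shortest to the longest quartile the median log2 difference between the IPs was −0.23, −0.08, −0.01 and 0.03, and among IP-enriched genes −0.22, 0.06, 0.22 and 0.36. In the Inputs it ran the other way, from 0.11 to −0.07. The share of VTA-higher genes grew from 0.497% of the shortest quartile to 8.76% of the longest, and that of SNc-higher genes from 3.95% to 7.48%. The respiratory chain and ribosomal protein lists have median lengths of 1232 and 1120 nt and so belong to the shortest quartile, whose median fold change they share in sign. The part of length in their differences was not tested.

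**Figure D3:**
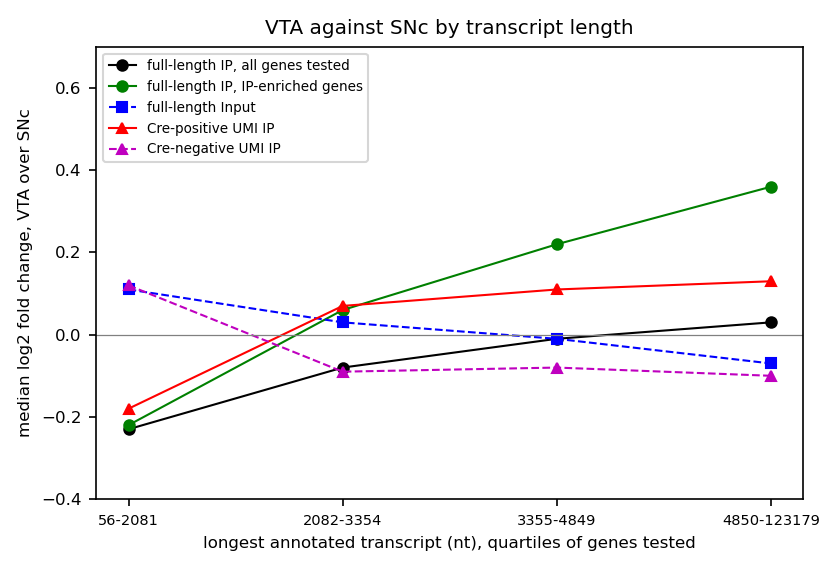
Median log2 fold change of VTA over SNc by quartile of longest transcript length, for full-length IPs, IP-enriched genes in these IPs, full-length Inputs, and Cre+ and Cre- UMI IPs. The IP series and the Cre+ UMI series climb from the shortest to the longest quartile, from −0.23 to 0.03 and from −0.18 to 0.13, while Inputs and Cre- UMI IPs fall from 0.11 to −0.07 and from 0.12 to −0.10.

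Markers of glia were SNc-higher in the IPs. All 18 oligodendrocyte markers, 18 of 19 astrocyte markers, 8 of 12 microglial and 2 of 12 endothelial and mural markers were SNc-higher, and none of these was VTA-higher. The medians were −2.35, −2.09, −2.65 and −1.61, and in the Inputs −0.13, 0.01, −0.30 and −0.17 with no member called. The 12 microglial markers summed to 66.9 to 76.7 CPM in the VTA IPs and 178 to 309 CPM in the SNc IPs, and 4 and 5 of them passed without SNc IP 2 and SNc IP 3, with 5 without VTA IP 2. The endothelial and mural count was 7 without VTA IP 1 (median −2.52) and 1 without VTA IP 2, SNc IP 2 or SNc IP 3. Cnp, an oligodendrocyte phosphodiesterase, gave the smallest p of the named genes, at 95.9, 82.3 and 71.7 CPM in the VTA IPs and 360.4, 429 and 406 CPM in the SNc IPs (−2.22 ± 0.15, adjusted p = 2.42e-08). The VTA IPs stood far under the VTA Inputs of 458, 459 and 445 CPM, and the SNc IPs by less under the SNc Inputs of 475, 491 and 463 CPM. Gja1, the astrocytic connexin, was at 22.1, 24.4 and 18.7 CPM against 87.5, 85.5 and 122 CPM (−2.14 ± 0.20, adjusted p = 1.07e-06). Car2, Cldn11 and Mag, all of oligodendrocytes, differed by −2.43 ± 0.20, −3.01 ± 0.28 and −2.60 ± 0.21. Trem2, of microglia, was at 0 in every VTA IP and at 0.784, 5.64 and 2.20 CPM in the SNc IPs.

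Markers of GABAergic neurons were SNc-higher as well, 11 of 13 tested, with 1 VTA-higher (Otx1) and a median of −3.12 (7 to 10 SNc-higher without any single library). Their sum was 275 to 357 CPM in the VTA IPs, 1013 to 1446 CPM in the SNc IPs and 1167 to 1872 CPM in the Inputs. Gad1, which makes GABA from glutamate, was at 72.5, 54.8 and 27.4 CPM in the VTA IPs and 422, 605 and 522 CPM in the SNc IPs. The SNc IPs held it at about the level of their Inputs of 468, 451 and 539.6 CPM, whereas the VTA IPs were below theirs of 259.7, 326 and 229 CPM, and the difference between IPs was −3.29 ± 0.33 (adjusted p = 1.08e-04). Slc32a1, the vesicular GABA transporter, was at 14.6, 21 and 14.4 CPM against 61.9, 90.1 and 78.3 CPM (−2.18 ± 0.26, adjusted p = 1.01e-05), and the Inputs differed in the same direction by −0.83 ± 0.15 (adjusted p = 0.00675). Of 10 genes of glutamate and GABA co-transmission 7 were SNc-higher, and none was VTA-higher. Of 10 further glutamatergic and other midbrain neuron markers, Slc17a6 and Slc17a7 were SNc-higher, the latter at 2.88, 0 and 0.323 CPM in the VTA IPs and 13.9, 29.9 and 20.5 CPM in the SNc IPs.

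Tcf7l2 (chr19:55741820-55933654), a Wnt-pathway transcription factor prominent in the thalamus, had the largest fold of the leading SNc-higher genes. It was at 5.43, 1.31 and 3.34 CPM in the VTA IPs and 72.7, 89.9 and 96.9 CPM in the SNc IPs (−4.56 ± 0.40, adjusted p = 3.70e-07). The Inputs differed in the same direction, at 59.2, 57.9 and 85.8 CPM in the VTA and 303, 244 and 271 CPM in the SNc (adjusted p = 1.90e-04). Prkcd and Zic1, chosen after their values were seen because they behaved alike, were at 12.4, 4.69 and 13.6 CPM and 0.639, 0 and 0 CPM in the VTA IPs and at 141, 311 and 293 CPM and 18.2, 41 and 53.2 CPM in the SNc IPs. Their Input levels were 16.1, 10.6 and 32.8 CPM and 4.28, 3.90 and 9.79 CPM in the VTA and 203, 237 and 101 CPM and 58.2, 69.4 and 36.8 CPM in the SNc. Of 6 serotonergic markers tested 1 was SNc-higher, 5 log2 differences were below 0 and the median was −1.13. In the Inputs 3 were VTA-higher, with a median of 0.96. Tph2, which makes serotonin, was at 5.75, 8.25 and 8.72 CPM against 2.18, 14.3 and 12.2 CPM in the IPs and at 22.1, 22.6 and 40.1 CPM against 0.859, 2.44 and 1.34 CPM in the Inputs.

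**Figure D4:**
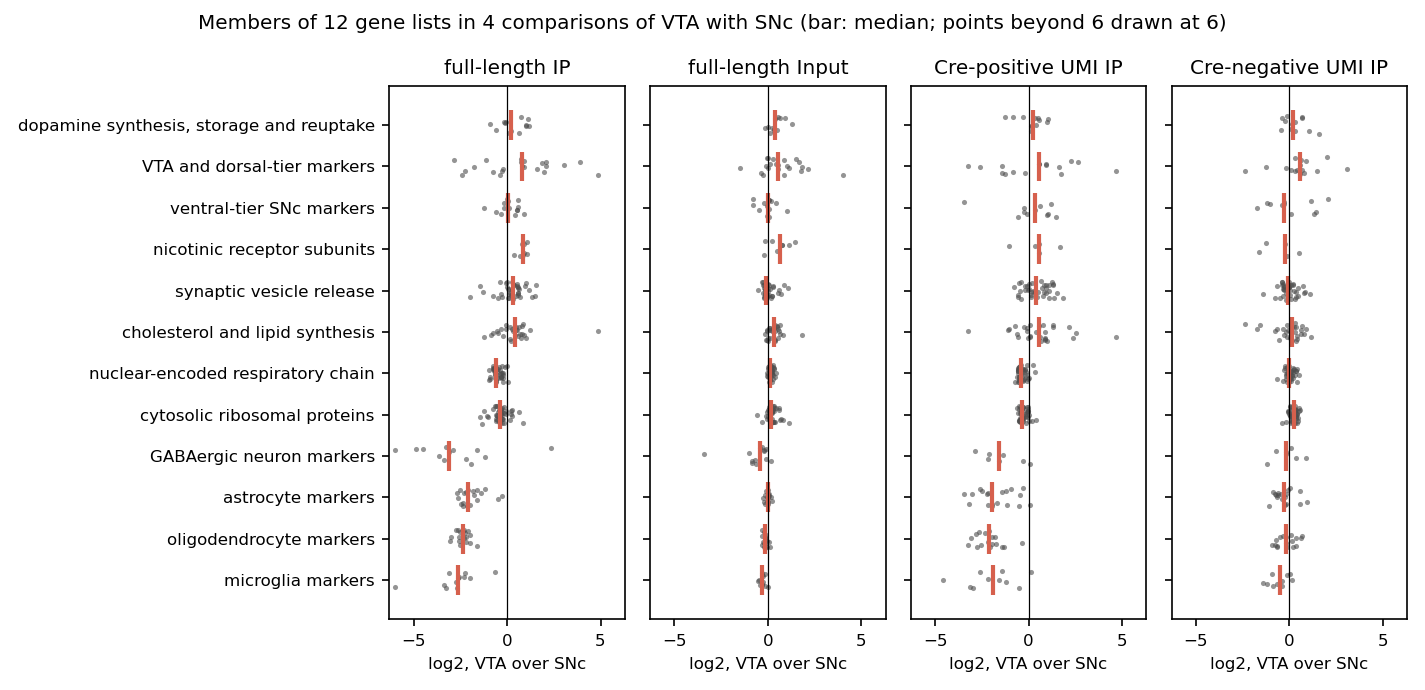
Log2 fold change of VTA over SNc (x) of the members of 12 gene lists (points, with bars at the medians) in full-length IPs, full-length Inputs, Cre+ UMI IPs and Cre- UMI IPs. Nicotinic subunits (0.87 in full-length IPs) and the VTA and dorsal-tier markers (0.79) lie to the VTA side, and the respiratory chain (−0.57) and glial markers (−2.09 and −2.35) to the SNc side in the IPs.

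The Inputs held far fewer differences. VTA and SNc Inputs differed for 131 of 15944 genes (0.822%), 54 VTA-higher and 77 SNc-higher. Of the 129 also tested in the IPs, 59 were called in the IPs in the same direction and 1 in the opposite one. These 59 were part of the 1410 genes called in the IPs, and among the 394 VTA-higher, IP-enriched genes 19 were called in the Inputs in the same direction. The interaction of region with fraction, which asks whether IP enrichment differs between the regions, was called for 1773 genes (11.1%), 539 higher (3.38%) and 1234 lower (7.74%) in the VTA, and for 186 of the 394 and 88 of the 97 in the direction of the IP call. The 394 and the 97 were chosen from the same IP libraries, so their shares are not independent of that choice. The Input difference with the smallest p, noticed after the values were seen, was in Cartpt, the peptide CART, at 253, 302 and 210.2 CPM in the VTA Inputs and 4.30, 5.08 and 4.73 CPM in the SNc Inputs (5.78 ± 0.27, adjusted p = 3.90e-10). The IPs did not follow it, at 30.4, 23.1 and 19.7 CPM in the VTA and 14.0, 20.2 and 8.63 CPM in the SNc (0.80 ± 0.47, adjusted p = 0.332).

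The UMI libraries measured the same regions by their 3′ ends at 19805 to 92936 UMIs per library. Of 9684 genes tested, 43 (0.444%) differed between the Cre+ IPs of the VTA and the SNc, 8 VTA-higher (0.0826%) and 35 SNc-higher (0.361%), with 836 at an unadjusted p under 0.05. Between the Cre- IPs 3 genes (0.031%) differed, Cartpt and Ucn higher in the VTA (0.0207%) and Prkcd higher in the SNc (0.0103%), with 503 at an unadjusted p under 0.05 and 1 gene called by DESeq2. The labels do not say whether animals were shared with the full-length libraries. Calb1 was at 274, 376, 581 and 485 CPM in the Cre+ VTA IPs and 100.3, 35.5, 75.0 and 125 CPM in the Cre+ SNc IPs. The groups did not overlap (log2 difference 2.30 ± 0.44, adjusted p = 1.91e-04). The Cre- VTA IPs had a lowest of 18.2, a median of 39.96 and a highest of 169 CPM (n = 6), and the Cre- SNc IPs a lowest of 0, a median of 10.4 and a highest of 107 CPM (n = 6). Scg2 was at 2288, 2866, 2654 and 3129 CPM against 1337, 941, 1375 and 1221 CPM (1.18 ± 0.28, adjusted p = 0.0106). Th was at 2654, 3976, 2705 and 3949 CPM against 1270.0, 1101, 2751 and 1570.0 CPM, a difference of the size seen in the full-length IPs that missed the threshold (1.00 ± 0.27, adjusted p = 0.0509). Lpl passed there too (adjusted p = 0.0331), with no UMI in any Cre+ SNc IP.

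Most full-length calls kept their sign in the Cre+ UMI IPs. Of the VTA-higher, IP-enriched genes with a UMI value, 309 of 342 (90.4%) were above 0 in Cre+ IPs with a median of 0.82, and 171 of 342 (50.0%) in Cre- IPs. Of the SNc-higher, IP-enriched genes 85 of 93 (91.4%) were below 0 in Cre+ IPs with a median of −0.44, and 51 of 93 (54.8%) in Cre- IPs. Few passed the test there, with 6 of the 342 and 0 of the 93 called in Cre+ IPs in the same direction. These are counts of signs over genes, which are not independent replicates. Over all 9001 genes measured by both methods, 51.7% were above 0 in Cre+ and 48.1% in Cre- IPs. Respiratory chain genes were below 0 for 39 of 41 in Cre+ IPs (median −0.43) and for 20 of 41 in Cre- IPs (median 0.00), and ribosomal protein genes for 45 of 49 in Cre+ (median −0.33) and 5 of 49 in Cre- IPs (median 0.23). All 17 oligodendrocyte markers measured were below 0 in Cre+ IPs (median −2.11), and 10 of 17 in Cre- IPs (median −0.15).

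Transcripts that bind the capture without tagged ribosomes were checked last. Bcar1, a Cas-family scaffold that is abundant in Cre- IPs, was at 2073, 2074 and 2026 CPM in the full-length VTA IPs and 2535, 1627 and 2636 CPM in the SNc IPs. The groups overlapped and did not differ in the test (−0.10 ± 0.15, adjusted p = 0.805). Its UMI levels were 579.5, 681, 531 and 904 CPM in Cre+ VTA IPs and 602, 781, 925 and 1047 CPM in Cre+ SNc IPs, against a lowest of 2876, a median of 5710.0 and a highest of 12850.0 CPM in Cre- VTA IPs and a lowest of 2881, a median of 6461 and a highest of 8063 CPM in Cre- SNc IPs. Without SNc IP 1 or SNc IP 3 its difference was 0.01 or 0.05. Of 5 such mRNAs tested, Nedd9, a related scaffold, was VTA-higher at 397, 423 and 392 CPM against 251, 85.0 and 108 CPM (1.49 ± 0.38, adjusted p = 0.0442). Nedd9 missed the threshold in 9 of 13 alternatives, namely the scalings on DESeq2 size factors, total counts and IP-enriched genes, the fit of these 6 IPs alone and the omission of any single library other than SNc IP 1 (adjusted p up to 0.176).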

How the data were processed

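RiboTag IPs and Inputs were sequenced by a full-length stranded total RNA method and also by a pooled 3′-end UMI method. The authors aligned reads to GRCm38 with STAR and deposited raw counts per gene for the full-length libraries and UMI counts per gene for the pooled ones. The submitters' processing notes name STAR 2.6.7a, featureCounts 1.6, Bowtie2 and GRCm38.p6. Only unique alignments were counted, which lowers genes with near-identical copies, and the strand setting of the counting is not given in the sources used here. Groups were taken from the deposited labels. Counts were tested with edgeR 4.0.16 (R 4.3.3; quasi-likelihood, TMM, its default filter on low counts, Benjamini-Hochberg threshold 0.05) on the 9 Cre+ full-length IPs of VTA, SNc and SNr. IP against Input, the Inputs and the interaction of region with fraction came from a fit of 12 libraries, and the UMI comparisons from 20 IP libraries with at least 10 UMIs per gene in all. Printed CPM values were scaled over 18 libraries, so their ratio can differ slightly from the fitted fold. DESeq2 1.42.0, other scalings, filters and sample sets and the omission of each library were the alternatives. The fits were tested on simulated data. Genes were named as the 12 IP-enriched genes per direction (at least 5 CPM) and, among called genes at or above the median level, the 6 strongest by p in each direction, the up to 4 members per list with the smallest p, called or not, and fixed control genes. Other names, such as further called members of a list or genes outside that rule that missed the threshold, were chosen after their values were seen. The members and the 34 gene lists were chosen with earlier results of these data known. Full-length totals ran from 3.06 to 15.8 M counts in the VTA and SNc libraries. Libraries of other regions, ages and treatments were not used here, and some named genes are not reported here.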

Additional observations from a re-analysis of the deposited data

Results flagged for a closer look

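The leading genes were mostly chosen for the smallest p between the same IPs, so the share given next was partly set by that choice. Over all genes the interaction was called for 1773 of 15944 (11.1%). Region and fraction interacted for 32 of 39 leading genes, that is, the log2 enrichment in IP over Input differed between VTA and SNc in edgeR's test of the interaction. It was higher in the VTA by 2.03 for Amotl1, 1.55 for Calb1, 1.20 for Casr, 1.25 for Ddah1, 2.99 for Lpl, 1.53 for Mcc, 1.97 for Otx2, 1.70 for Pappa, 1.02 for Parm1, 1.33 for Scn9a, 0.73 for Sdc2 and 1.17 for Sphkap. For the SNc-higher, IP-enriched genes the interaction was −1.29 for Atp5mpl, −0.74 for Bsg, −0.92 for Chchd10, −0.95 for Ckmt1, −0.75 for Cox6a1, −1.24 for Cox6b1, −0.76 for Cox6c, −1.17 for Dync1h1, −0.98 for Eprs, −1.20 for Mgst3, −0.78 for Slc25a5 and −1.90 for Sncg. Oligodendrocyte genes gave −2.53 for Car2, −2.84 for Cldn11, −2.19 for Cnp and −2.38 for Mag, and Tcf7l2 gave −2.53. Slc17a6 and Slc6a3 gave −1.73 and −0.49.

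In the UMI IPs the difference between VTA and SNc depended on genotype for 15 of 9684 genes (0.155%), all lower in the VTA of Cre+ mice relative to Cre- mice, with 742 genes at an unadjusted p under 0.05. They included glial genes, with interactions of −2.41 for Apod, −1.65 for Apoe, −2.47 for Cryab, −1.73 for Ndrg2, −1.59 for Ptgds, −2.56 for S100b, −1.71 for Sparcl1 and −2.49 for Trf. Beyond these were Cartpt at −4.21, the nuclear RNA Malat1 at −1.62, and the mitochondrially encoded mt-Cytb at −1.83, mt-Nd2 at −1.63 and mt-Td at −2.55.

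Single UMI libraries lay far from the rest of their group in 4 of 48 groups tested with Dixon's criterion, which chance flags in about 1 of 20 groups. These were the highest Cre- SNc values of Ankrd34b (106 CPM), Calb1 (107 CPM) and Ptgds (5835 CPM) and the highest Cre- VTA value of Bcar1 (12850 CPM).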

How the results depend on the processing

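The 1410 genes called between VTA and SNc IPs became 1899 by DESeq2's Wald test, 2074 in a fit of the VTA and SNc IPs alone and 3177 in a fit of all 18 full-length libraries, where 34.8% were VTA-higher against 42.3%. Leaving out 1 library gave 604 to 2068 genes. DESeq2 size factors, total counts, no filter and scaling on IP-enriched genes gave 1343 to 1461. Leaving out 1 library gave 46 to 112 genes between Inputs and 1063 to 3681 for the interaction of region with fraction, the highest without SNc IP 1. In the UMI IPs 28 genes were called in Cre+ mice without the filter and 66 from Cre+ libraries alone, against 43, and leaving out 1 library gave 15 to 60 genes there and 3 to 35 for the interaction of genotype with region. The cause of these shifts was not tested. Of the named genes' values, 1807 kept direction and side of the threshold, 45 passed it newly, 114 no longer passed it, 6 small uncalled values changed sign or size, and no called gene reversed. Of 120 called named genes 84 passed in every alternative. No paired analysis was possible because the labels give no replicate numbers or mouse identities that join the libraries. The UMI libraries held 19805 to 92936 UMIs each, which limits the precision of low genes there.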
